A study of Mus musculus with 24 samples.

Results

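The JAK kinases Jak1, Jak2 and Tyk2 and the STAT transcription factors Stat2, Stat3, Stat4, Stat5a, Stat5b and Stat6 were examined in splenic B cells that lack Tet2 and Tet3 and in control B cells. These 9 genes, 3 kinases and 6 factors, were taken by symbol from 23234 genes in the deposited tables, and all 9 were found. Other genes of the 2 families were not analysed here. The series compared gene expression of B cell subsets from C57BL/6 mice with the genotype Tet2/Tet3-deficient, titled Tet DKO or Tet KO and called DKO here, against mice with the genotype control, titled CTL. Tet2 and Tet3 encode enzymes that oxidise 5-methylcytosine in DNA. Of 24 labelled samples in 8 groups, 12 libraries in 4 groups were used: DKO and CTL CD93-negative B cells, and DKO and CTL CD93-positive B cells, with 3 libraries in each group. CD93 marks immature, transitional B cells, though not these alone. The labels give no deleted allele, no Cre or other driver of the deletion and no age, and they do not say whether replicates are separate animals, so the p-values measure the spread between these libraries, which may be technical.

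JAK kinases sit on the inner ends of cytokine receptors. When a cytokine joins the receptor chains, the kinases phosphorylate each other and the receptor, and STAT proteins that dock there are phosphorylated in turn, pair up, enter the nucleus and bind DNA. Jak1 works with many receptor families, Jak2 with receptors for hormone-like cytokines and interferon gamma, and Tyk2 with receptors for type I interferon, the IL-10 family and IL-12. Stat2 is the factor of type I and III interferon responses and binds DNA together with Irf9. Stat3 follows IL-6, IL-10 and IL-21, Stat4 follows IL-12, Stat5a and Stat5b follow IL-2, IL-7 and related cytokines, and Stat6 follows IL-4 and IL-13. In B cells IL-4 and IL-21 are among the cytokines that act through this route on class switching and on the step to plasma cells. RNA levels, as measured here, do not show the phosphorylation of any of these proteins.

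Promoter sequences are shown for the 4 genes with the largest called changes in the comparisons below: Stat2, Stat3 and Jak2 in CD93-negative cells, and Jak2 and Stat4 in CD93-positive cells. They come from RefSeq on the build GRCm38.p6 and run from 250 bases before to 50 bases after an annotated start site, 5′ to 3′ on the strand of the gene. The deposited values rest on the build mm9, so these coordinates belong to the RefSeq table and not to the deposited files. All 9 genes matched this table, with 12 start sites in all. The last bases of each window, after the start site, were looked for in GENCODE M21 transcripts of the gene. They were found for the Stat3 and Stat4 windows but not for those of Stat2 and Jak2. Positions in the Stat2 and Jak2 windows therefore rest on the RefSeq start site alone. The motifs searched, 3 in all, were taken on both strands: the STAT half-sites TTCNNNGAA, the same half-sites with the wider spacing that Stat6 can use, TTCNNNNGAA, and the interferon-stimulated response element GAAANNGAAA, which Stat2 complexes bind. Stat2 and the second start site of Stat4 held a match, which is in capitals.
Stat2: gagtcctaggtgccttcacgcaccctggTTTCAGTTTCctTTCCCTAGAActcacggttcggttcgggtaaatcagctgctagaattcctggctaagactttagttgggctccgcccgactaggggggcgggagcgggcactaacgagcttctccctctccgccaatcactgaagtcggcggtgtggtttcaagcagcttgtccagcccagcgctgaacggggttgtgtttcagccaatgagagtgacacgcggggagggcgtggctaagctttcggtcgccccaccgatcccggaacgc
Stat4: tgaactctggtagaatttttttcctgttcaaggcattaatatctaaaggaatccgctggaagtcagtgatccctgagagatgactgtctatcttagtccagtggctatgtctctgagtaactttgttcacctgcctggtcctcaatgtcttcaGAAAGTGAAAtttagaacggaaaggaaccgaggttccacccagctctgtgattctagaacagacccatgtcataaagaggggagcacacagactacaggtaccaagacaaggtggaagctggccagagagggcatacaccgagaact
The Stat2 window lies at chr10:128270248-128270547 on the plus strand. It holds the response element on the minus strand, printed on the plus strand as TTTCAGTTTC and beginning 222 bases before the start site, and the wider half-sites as TTCCCTAGAA, beginning 210 bases before it, with no overlap between them. The Stat4 window lies at chr1:52007990-52008289 on the plus strand and holds GAAAGTGAAA on the plus strand, beginning 97 bases before the start site. Over 32851 promoter windows of the same length, 8.30% held TTCNNNGAA, 6.95% held TTCNNNNGAA and 3.44% held GAAANNGAAA. No other window of the 9 genes held any of the 3 motifs, which says only that these letters are not in these windows.

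Because Tet enzymes act on methylated CpG, the CpG dinucleotides are in capitals in the windows of Stat3, which rose in DKO CD93-negative cells, and Jak2, which lay lower in DKO than in CTL libraries of both populations.
Stat3: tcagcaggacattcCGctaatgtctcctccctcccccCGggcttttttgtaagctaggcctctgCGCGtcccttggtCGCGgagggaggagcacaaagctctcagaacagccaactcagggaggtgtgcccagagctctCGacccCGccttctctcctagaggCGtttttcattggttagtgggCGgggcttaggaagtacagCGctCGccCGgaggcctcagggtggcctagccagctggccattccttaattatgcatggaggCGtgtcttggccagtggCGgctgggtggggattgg
Jak2: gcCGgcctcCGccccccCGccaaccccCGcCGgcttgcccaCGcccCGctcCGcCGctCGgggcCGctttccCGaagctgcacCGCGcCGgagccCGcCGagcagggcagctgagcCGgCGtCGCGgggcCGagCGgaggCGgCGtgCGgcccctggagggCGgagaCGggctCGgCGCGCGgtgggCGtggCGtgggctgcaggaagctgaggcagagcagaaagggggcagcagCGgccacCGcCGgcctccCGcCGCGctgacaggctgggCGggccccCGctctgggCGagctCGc
The Stat3 window, chr11:100939491-100939790 on the minus strand, has 15 CpG, and the Jak2 window, chr19:29251553-29251852 on the plus strand, has 44, more than 97.8% of all windows. The Stat2 window has 22 CpG and the 2 Stat4 windows have 2 and 4, against a median of 7 over all windows. DNA methylation is not among the measurements used here.

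The deposited values are FPKM, fragments scaled to transcript length and to the size of the library, which hold no counts, so the depth of the libraries is unknown. The summed FPKM ran from 424032 to 463987 in DKO and from 342368 to 394709 in CTL CD93-negative libraries. In CD93-positive cells DKO replicate 3 stood apart, with 309359, against 583580 and 597968 in the other DKO libraries and 523898 to 595984 in CTL libraries. Differences are therefore given with the authors' scaling and also after each library was rescaled to the same upper quartile over tested genes. Reading sex from Xist and Ddx3y, all 6 CD93-negative libraries were male, while in CD93-positive cells the 3 DKO libraries and CTL replicate 3 were female and CTL replicates 1 and 2 were male. Tet2 had 9.94, 8.15 and 9.40 FPKM in DKO and 6.36, 8.11 and 8.79 FPKM in CTL CD93-negative libraries, and 3.56, 2.29 and 1.80 FPKM in DKO and 3.18, 3.47 and 3.10 FPKM in CTL CD93-positive libraries. Tet3 had 15.7, 15.6 and 14.9 FPKM in DKO and 14.8, 20.1 and 19.0 FPKM in CTL CD93-negative libraries, and 9.92, 7.67 and 3.84 FPKM in DKO and 12.1, 13.0 and 14.1 FPKM in CTL CD93-positive libraries. A value over the whole gene includes exons outside a deleted part, so these levels do not check the labels. Cd93 had 3.32 to 4.65 FPKM over the CD93-negative and 28.0 to 59.9 FPKM over the CD93-positive libraries.

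All 9 genes had more than 1 FPKM in every library of both populations, so all passed the filter on low values and none was tested only because 1 group was high. In DKO CD93-negative cells the order of the mean levels was Jak1, Stat3, Stat6, Stat2, Tyk2, Stat5b, Jak2, Stat5a and Stat4, running from 81.1 FPKM for Jak1 to 14.4 FPKM for Stat4. Within that order only Stat3 and Stat6, and Stat5a and Stat4, were neighbours with overlapping ranges. In CTL CD93-negative cells Stat6, at a mean of 58.3 FPKM, was second to Jak1, at 90.5 FPKM, followed by Stat3 at 34.9 FPKM. From Stat3 down to Stat5b each neighbour's range overlapped the next, as did Stat5a and Stat4. Within every single library the order from Stat3 down to Stat5b still held. Jak1 lay above 93.2 to 95.7% of all tested genes in the 6 libraries, and Stat4 above 54.2 to 58.9% of them. In DKO CD93-positive cells the ranges of every neighbouring pair overlapped, with Jak1 on top at 39.2 FPKM and Stat4 lowest at 5.21 FPKM. Within every single library the order of neighbours still held, except for Jak1 and Stat6 and for Tyk2 and Stat5a. In CTL CD93-positive cells Jak1 had 50.2 FPKM and Stat4 3.75 FPKM. The ranges of Jak1 and Stat6, of Stat2 and Stat5a, and of Stat5a and Tyk2 overlapped there. Of these pairs only Stat5a and Tyk2 changed order within a library. The 2 populations come from tables scaled separately, so a difference between them in any of these levels was not tested.

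**Figure D1:**
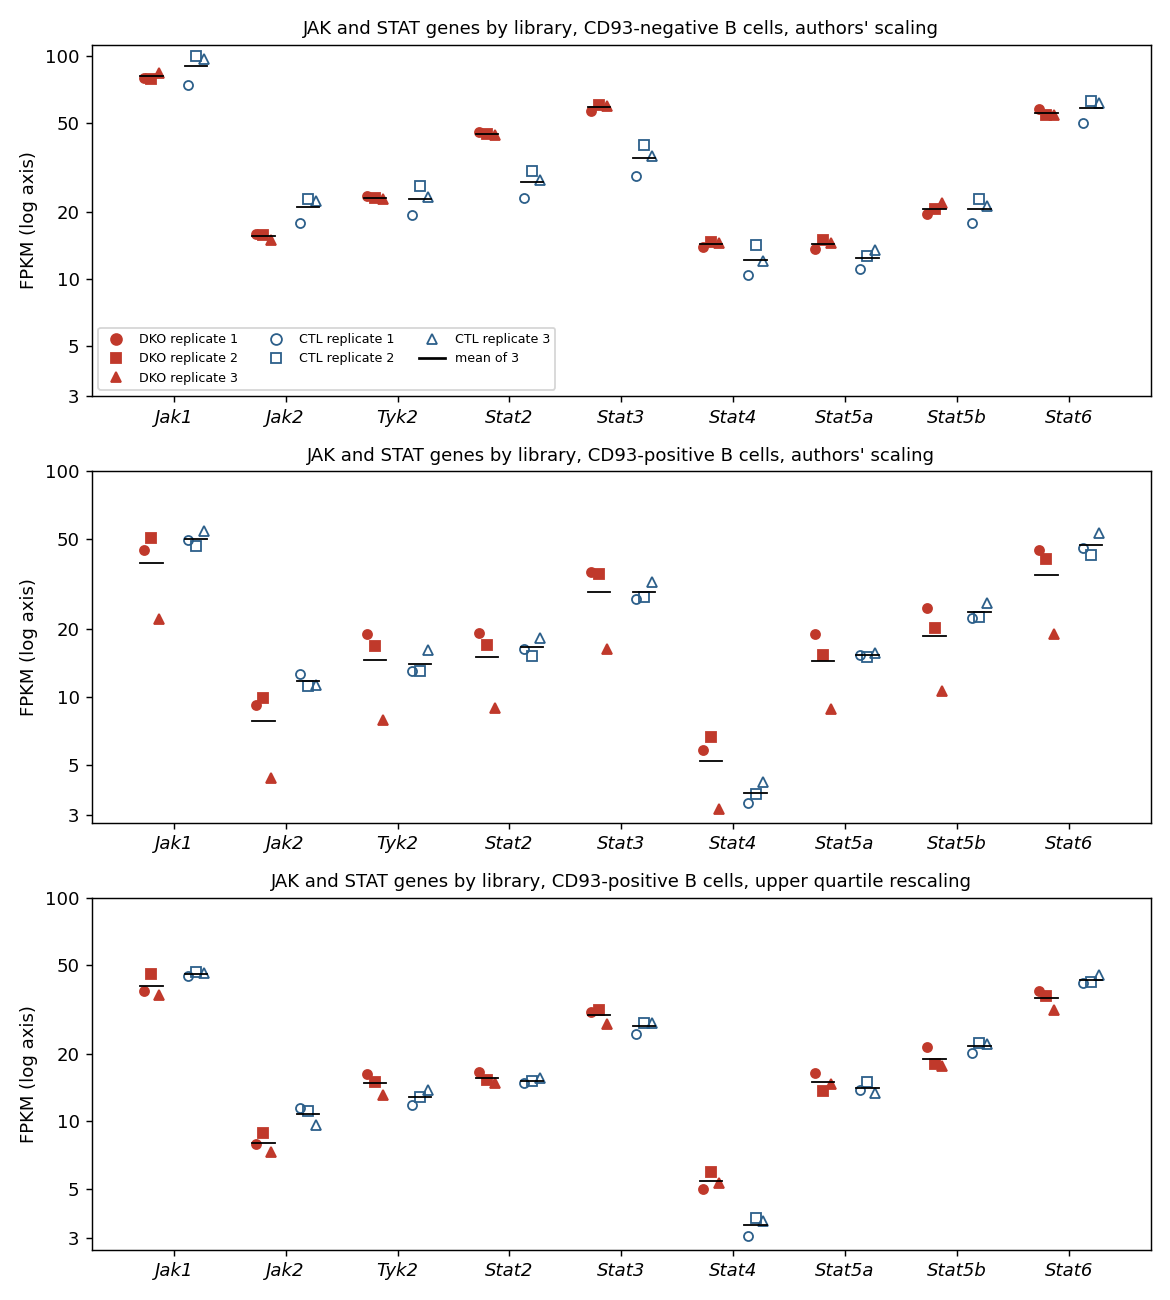
FPKM of the 9 genes in each library on a log axis, with DKO (filled) left of CTL (open) and a bar at the mean of 3, for CD93-negative cells, CD93-positive cells, and CD93-positive cells after rescaling to the same upper quartile. Stat2 (44.4 to 45.6 FPKM in DKO, 23.1 to 30.6 FPKM in CTL) and Stat3 separate in CD93-negative cells. In CD93-positive cells DKO replicate 3 is the lowest library for every gene before rescaling, and after it still for Jak1, Jak2, Stat5b and Stat6.

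In CD93-negative B cells, Stat2 and Stat3 rose in DKO cells, to 1.65 and 1.70 times the CTL mean, and these were the only members to pass the test with the authors' scaling. Jak2, the kinase of interferon gamma and hormone-like receptors, was at 15.6 FPKM in DKO against 21.1 FPKM in CTL cells and missed the threshold there, but passed it as lower after rescaling. Of the 9 genes, 2 were called higher and 0 lower with the authors' scaling (limma on log2(FPKM + 1), Benjamini-Hochberg adjusted p under 0.05 over 10960 tested genes), with 3 at an unadjusted p under 0.05. Of all tested genes 21.5% were called, 18.7% as higher and 2.79% as lower, and 33.2% had an unadjusted p under 0.05. After the upper quartile rescaling 2 members were called higher and 5 lower, when 40.9% of all tested genes were called, 17.1% as higher and 23.8% as lower, and 7 members were at an unadjusted p under 0.05, as were 50.8% of all genes. Counting only groups that did not overlap, DKO libraries were above CTL libraries for 3 members (31.5% of all tested genes) and below for 1 (7.43%), and after rescaling above for 2 (21.4%) and below for 5 (33.3%). The median log2 change of the members was 0.025, against 0.11 over all tested genes, and −0.19 against −0.083 after rescaling. The rescaling thus moved the median of all genes by more than 0.1, and the directions of members with small changes depend on it.

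Jak1, the most abundant of the 9, had 79.8, 79.3 and 84.3 FPKM in DKO libraries, against 73.9, 101 and 96.9 FPKM in CTL libraries. The groups overlapped because CTL replicate 1, which also had the lowest summed FPKM, was below the DKO libraries. The log2 change was −0.14 ± 0.14 (SE, adjusted p = 0.536), with an interval from −0.45 to 0.17. After rescaling it was −0.36 (adjusted p = 0.000882, with 0.000882 to 0.815 over all alternatives), and without CTL replicate 1 it was −0.28 (adjusted p = 0.0177) with the authors' scaling. Jak2 had 16.0, 15.8 and 15.0 FPKM in DKO libraries, against 17.8, 23.0 and 22.5 FPKM in CTL libraries. Every DKO library was below every CTL library. The log2 change was −0.41 ± 0.13 (SE, adjusted p = 0.0505). After rescaling it was −0.62 (adjusted p = 0.000304, with 0.000304 to 0.194 over all alternatives), which is 0.637 times the CTL mean, and without CTL replicate 1 it was −0.52 (adjusted p = 0.00270) with the authors' scaling. Tyk2, the partner kinase of the interferon and IL-12 receptors, had 22.9 to 23.6 FPKM in DKO and 19.5 to 26.2 FPKM in CTL libraries. Its log2 change was 0.025 (adjusted p = 0.928), with an interval from −0.27 to 0.32, and −0.19 (adjusted p = 0.0237, with 0.0237 to 1 over all alternatives) after rescaling, so its sign turned with the scaling. The rescaled call of Tyk2 was lost without DKO replicate 2 or 3 or CTL replicate 1 or 2 (adjusted p = 0.0626, 0.0748, 0.0503 and 0.0731).

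Stat2, the interferon factor whose promoter window above holds a response element, had 45.6, 44.6 and 44.4 FPKM in DKO libraries, against 23.1, 30.6 and 27.9 FPKM in CTL libraries. The means were 44.8 ± 0.647 FPKM in DKO and 27.2 ± 3.79 FPKM in CTL cells (SD, n = 3 each, limma adjusted p = 0.00247). The log2 change was 0.71 ± 0.13 (SE), and 0.49 (adjusted p = 0.000315) after rescaling. Stat3, the factor of the IL-6, IL-10 and IL-21 receptors, had 56.8, 60.7 and 60.1 FPKM in DKO libraries, against 29.2, 40.0 and 35.6 FPKM in CTL libraries. All 3 DKO libraries were above all 3 CTL libraries for both genes. The spread was smaller among DKO libraries only with the authors' scaling. After rescaling the SD of Stat2 was 1.418 FPKM in DKO and 0.556 FPKM in CTL cells. That of Stat3 was then 1.515 FPKM in DKO and 1.241 FPKM in CTL cells. For Stat3 the means were 59.2 ± 2.098 FPKM in DKO and 34.9 ± 5.43 FPKM in CTL cells (SD, n = 3 each, limma adjusted p = 0.00213), with a log2 change of 0.76 ± 0.14 (SE) and of 0.54 (adjusted p = 0.000236) after rescaling. Over all alternatives the change of Stat2 lay between 0.47 and 0.80 (adjusted p from 3.67e-05 to 0.0423) and that of Stat3 between 0.50 and 0.86 (adjusted p from 8.95e-06 to 0.0493), and neither lost its call.

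The remaining STAT factors did not pass the test with the authors' scaling. Stat5a, which like Stat5b serves the IL-2 and IL-7 receptors, had 13.7, 15.0 and 14.5 FPKM in DKO libraries, against 11.1, 12.7 and 13.6 FPKM in CTL libraries. The groups did not overlap, yet the log2 change was 0.20 (adjusted p = 0.320) and became −0.0092 after rescaling. Stat4, the IL-12 factor, had 13.9 to 14.6 FPKM in DKO and 10.5 to 14.2 FPKM in CTL libraries, with a log2 change of 0.22 (adjusted p = 0.295) and 0.014 after rescaling. Stat5b had 19.7 to 21.9 FPKM in DKO and 17.8 to 22.8 FPKM in CTL libraries, with a log2 change of 0.014 (adjusted p = 0.960). Stat6, the IL-4 factor, had 54.3 to 58.0 FPKM in DKO and 50.3 to 62.7 FPKM in CTL libraries, with a log2 change of −0.059 (adjusted p = 0.806) and an interval from −0.34 to 0.23. After rescaling Stat5b had a log2 change of −0.20 (adjusted p = 0.0161, with 0.0161 to 1 over all alternatives) and Stat6 of −0.28 (adjusted p = 0.00580, with 0.00409 to 0.987), both called lower, though Stat5b sat at the threshold without DKO replicate 1 (adjusted p = 0.05004). Stat5a and Stat5b lie beside each other on chromosome 11 and share sequence: 15.8% of the 50-base windows of the longest Stat5a transcript occur in Stat5b, and 11.8% of those of Stat5b in Stat5a. How fragments that fit both were assigned is not given in the sources used here, so the split between these genes is uncertain. Of Stat4, 28.6% of the windows occur in the annotated gene Gm28177, which has no row in the tables used, and how fragments that fit both were treated is not given either. The other 6 genes share no such window.

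**Figure D2:**
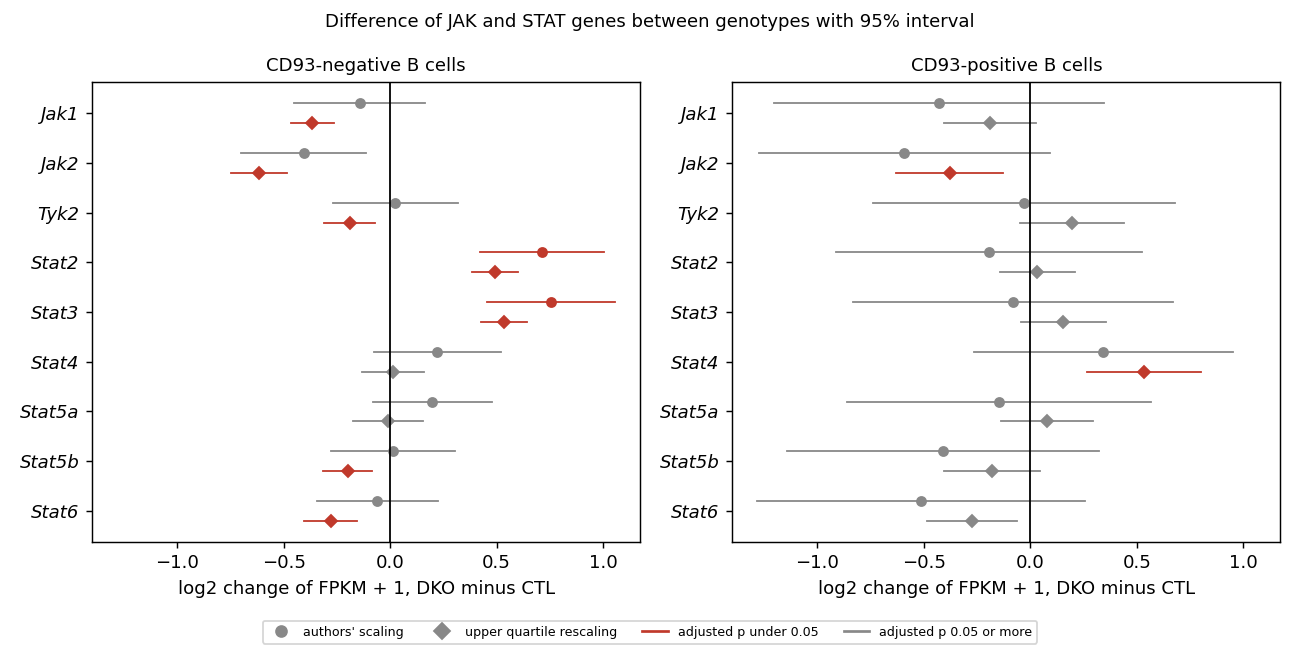
Log2 change of FPKM + 1, DKO minus CTL, for the 9 genes with 95% intervals, with the authors' scaling (circles) and after upper quartile rescaling (diamonds), red where the adjusted p is under 0.05. In CD93-negative cells Stat2 and Stat3 are red and above 0 in both scalings and Jak2 is red at −0.62 only after rescaling, while in CD93-positive cells the intervals with the authors' scaling all include 0.

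A share within a library does not depend on how the library was scaled. The share of each gene in the summed FPKM of the 9 was therefore compared, 18 comparisons in all with an exact two-sided permutation test, in which 3 against 3 cannot give a p under 0.1 and the smallest adjusted value was 0.139. In CD93-negative cells Stat3 made up 17.4, 18.5 and 18.1% of the sum in DKO libraries, against 11.5, 12.0 and 11.3% in CTL libraries. Stat2 made up 13.9, 13.6 and 13.4% in DKO libraries, against 9.12, 9.19 and 8.84% in CTL libraries. Both shares were separate between the groups (p = 0.1 each, exact permutation test), with gaps several times the spread within a group. Jak1 made up 24.6 ± 0.665% in DKO and 30.1 ± 0.788% in CTL cells, and Jak2 4.74 ± 0.187% in DKO and 7.03 ± 0.114% in CTL cells (SD, n = 3 each, p = 0.1 each, exact permutation test). Tyk2, Stat5b and Stat6 also had smaller shares in all 3 DKO libraries, and Stat4 and Stat5a had shares that overlapped. A share is relative: where some rise, others must shrink. The summed FPKM of the 9 genes was 329 ± 2.47 in DKO and 300 ± 41.8 in CTL cells (SD, n = 3 each).

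The balance between members that follow different cytokines can be read the same way, as a description with no test. Stat3 made up 51.5 ± 1.79% of Stat3 and Stat6 together in DKO and 37.4 ± 1.33% in CTL CD93-negative cells, and 45.7 ± 1.05% in DKO and 38.2 ± 1.17% in CTL CD93-positive cells (SD, n = 3 each). Among the 3 kinases Jak2 made up 13.0 ± 0.611% in DKO and 15.7 ± 0.325% in CTL CD93-negative cells, and 12.7 ± 0.0867% in DKO and 15.5 ± 1.51% in CTL CD93-positive cells. In both populations the DKO libraries stood above all CTL libraries for the Stat3 ratio and below all of them for Jak2. Tyk2 made up 19.4 ± 0.565% of the kinases in DKO and 17.1 ± 0.662% in CTL CD93-negative cells, and 23.6 ± 2.27% in DKO and 18.5 ± 1.21% in CTL CD93-positive cells. Stat5a made up 41.0 ± 1.08% of the Stat5 pair in DKO and 37.7 ± 1.68% in CTL CD93-negative cells, and 43.9 ± 1.16% in DKO and 39.4 ± 1.61% in CTL CD93-positive cells, subject to the shared sequence above. Jak1 made up 67.6 ± 1.18% of the kinases in DKO and 67.2 ± 0.704% in CTL CD93-negative cells, where the groups overlapped, and 63.7 ± 2.18% in DKO and 66.1 ± 0.307% in CTL CD93-positive cells, where DKO libraries were below. Stat2 made up 35.6 ± 0.986% of Stat2 and Jak1 together in DKO and 23.1 ± 0.751% in CTL CD93-negative cells, with DKO libraries above, and 28.0 ± 2.60% in DKO and 24.9 ± 0.344% in CTL CD93-positive cells, where the groups overlapped.

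**Figure D3:**
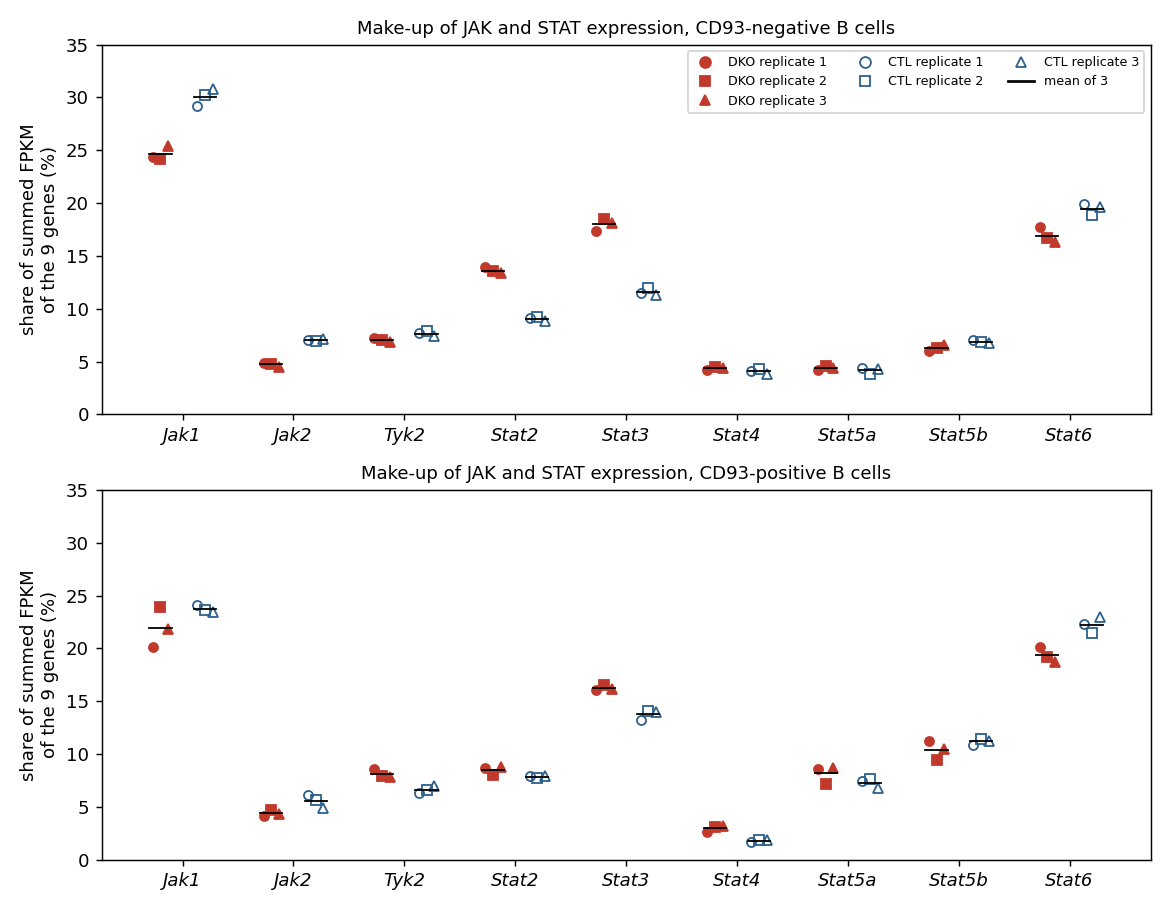
Share of each gene in the summed FPKM of the 9 genes, in percent, in each library, with DKO (filled) left of CTL (open) and a bar at the mean of 3. Stat3 moves to a larger share in DKO libraries of both populations (18.0 against 11.6% in CD93-negative and 16.2 against 13.8% in CD93-positive cells), and Jak2 and Stat6 to smaller ones.

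In CD93-positive B cells none of the 9 genes passed the test with the authors' scaling, and after rescaling Stat4 was called higher and Jak2 lower. The count with the authors' scaling was 0 (limma, adjusted p under 0.05 over 11250 tested genes), also 0 at an unadjusted p under 0.05, when 3.21% of all tested genes were called, 1.67% as higher and 1.54% as lower, and 11.9% were at an unadjusted p under 0.05. After rescaling 1 member was called higher and 1 lower, with 3 at an unadjusted p under 0.05, when 20.7% of all tested genes were called, 11.4% as higher and 9.34% as lower, and 36.6% were at an unadjusted p under 0.05. DKO libraries did not overlap CTL libraries for 1 member with the authors' scaling, Jak2, which was below (19.0% of all tested genes), and were above for 0 (2.94%). After rescaling DKO was above for 1, Stat4 (20.9%), and below for 2, Jak2 and Stat6 (22.0%). The median log2 change of the members was −0.19, against −0.22 over all tested genes, and 0.034 against −0.011 after rescaling. With the authors' scaling the shared spread among libraries is wide, so these intervals hold sizable changes in either direction: that of Stat3 runs from −0.83 to 0.67 and that of Stat2 from −0.91 to 0.52.

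Stat4 had 5.80, 6.64 and 3.18 FPKM in DKO libraries, against 3.36, 3.69 and 4.20 FPKM in CTL libraries. DKO replicate 3 was the lowest of all 6. After rescaling the values were 5.01, 5.96 and 5.31 FPKM in DKO libraries, against 3.05, 3.68 and 3.59 FPKM in CTL libraries, and the groups no longer overlapped. The log2 change was 0.34 (adjusted p = 0.705) with the authors' scaling and 0.53 ± 0.11 (SE, adjusted p = 0.0217, with 0.0217 to 0.998 over all alternatives) after rescaling. The call after rescaling was lost without DKO replicate 2 (adjusted p = 0.0655), without CTL replicate 1 or 2 (0.0733 and 0.0621), with the replicate number as a block and with sex as a term, where the change was 0.48 (adjusted p = 0.157). Jak2 had 9.18, 9.91 and 4.38 FPKM in DKO libraries, against 12.6, 11.2 and 11.3 FPKM in CTL libraries. All 3 DKO libraries were below all 3 CTL libraries, and likewise after rescaling, with 7.93, 8.90 and 7.31 FPKM in DKO libraries, against 11.5, 11.2 and 9.66 FPKM in CTL libraries. The log2 change was −0.59 (adjusted p = 0.509) with the authors' scaling and −0.38 ± 0.11 (SE, adjusted p = 0.0480, with 0.0426 to 0.998 over all alternatives) after rescaling, a call that was lost with any single library left out (adjusted p from 0.0613 to 0.150) but CTL replicate 3. With sex as a term the rescaled change of Jak2 was −0.24 (adjusted p = 0.349), and that fit in effect sets the DKO libraries against the 1 female CTL library.

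Stat2 and Stat3, which were called in CD93-negative cells, did not pass the test here in either scaling. Stat2 had 19.3, 17.1 and 8.90 FPKM in DKO libraries, against 16.3, 15.2 and 18.3 FPKM in CTL libraries, a log2 change of −0.19 (adjusted p = 0.871) that became 0.034 (interval −0.14 to 0.21) after rescaling. Stat3 had 35.7, 35.1 and 16.3 FPKM in DKO libraries, against 27.3, 27.8 and 32.4 FPKM in CTL libraries, a log2 change of −0.081 (adjusted p = 0.960) that became 0.16 (interval −0.045 to 0.36) after rescaling. For both genes DKO replicate 3 was below and DKO replicate 1 above all CTL libraries, so the groups overlapped. Whether the change differs between the populations was not tested. Of the remaining members Jak1, Stat5b and Stat6 had log2 changes of −0.43, −0.41 and −0.51 with the authors' scaling and of −0.19, −0.18 and −0.27 after rescaling, and Tyk2 and Stat5a had −0.028 and −0.15 that became 0.20 and 0.080. Stat6 had 44.6, 40.8 and 18.9 FPKM in DKO libraries, against 45.9, 42.5 and 53.2 FPKM in CTL libraries, and its rescaled interval ran from −0.49 to −0.062 with an adjusted p of 0.0723 (limma; 0.0591 to 0.998 over all alternatives). In the shares, Stat4 made up 2.96 ± 0.303% of the 9 genes in DKO and 1.77 ± 0.122% in CTL cells, Jak2 4.38 ± 0.267% in DKO and 5.56 ± 0.639% in CTL cells, and Stat6 19.3 ± 0.702% in DKO and 22.3 ± 0.735% in CTL cells (SD, n = 3 each, p = 0.1 each, exact permutation test). Tyk2, Stat2 and Stat3 had larger shares in all 3 DKO libraries than in any CTL library (p = 0.1 each, exact permutation test), and the other 3 overlapped.

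Genes around the JAKs and STATs were taken from lists by role, and their counts stand beside the shares of all tested genes given above. Among receptors that signal through JAKs, 3 of 24 tested genes rose and 1 fell in DKO CD93-negative cells, with a median log2 change of 0.088, and 3 rose and 8 fell after rescaling. Of all tested genes 18.7% rose and 2.79% fell there, and 17.1% rose and 23.8% fell after rescaling. The count of receptors that rose is thus below the share of all tested genes in both scalings. Il12rb1, the chain shared by the IL-12 and IL-23 receptors that works with Tyk2, had 8.62, 6.49 and 8.29 FPKM in DKO libraries, against 0.520, 1.28 and 1.36 FPKM in CTL libraries (log2 change 2.12, limma adjusted p = 9.05e-06). Il9r, the IL-9 receptor chain, had 9.90, 11.4 and 10.9 FPKM in DKO libraries, against 16.9, 21.6 and 21.9 FPKM in CTL libraries (log2 change −0.84, limma adjusted p = 0.00105). Both were separate between the groups. Only 2 of the 3 CTL libraries reached 1 FPKM for Il12rb1, in either population, so it reached the 3 libraries of the filter with DKO libraries. Il15ra and Il6ra, the specific chains for IL-15 and IL-6, rose by smaller amounts, with log2 changes of 0.60 and 0.47 (limma adjusted p = 0.0337 and 0.0414). The receptors called fell to 1 higher and 1 lower without DKO replicate 2 or DKO replicate 3, and without CTL replicate 1 they were 2 higher and 5 lower. Il4ra, the IL-4 receptor chain that Stat6 docks on, had 34.2, 36.7 and 39.7 FPKM in DKO libraries, against 40.1, 60.0 and 54.3 FPKM in CTL libraries, and was called only after rescaling (−0.67, limma adjusted p = 0.000474). In CD93-positive cells 0 of 23 tested receptors passed the limma test, with 3 at an unadjusted p under 0.05, and after rescaling 1 rose and 5 fell. Without DKO replicate 3 they were 2 higher and 2 lower with the authors' scaling. The 1 that rose after rescaling was Il12rb1, with 2.63, 2.86 and 1.70 FPKM in DKO libraries, against 0.843, 1.03 and 1.004 FPKM in CTL libraries. Il4ra and Il12rb1 in CD93-positive cells are named here after their values were seen.

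Among inhibitors of the route, 6 of 18 tested genes rose and 0 fell in DKO CD93-negative cells, and after rescaling 6 rose and 6 fell. Socs3, which binds receptors of the IL-6 type and Jak kinases and is itself a Stat3 target, had 25.1, 24.0 and 25.9 FPKM in DKO libraries, against 3.62, 3.77 and 3.08 FPKM in CTL libraries (log2 change 2.54, limma adjusted p = 7.85e-08). It was the same in direction in CD93-positive cells, with 12.0, 9.98 and 4.62 FPKM in DKO libraries, against 2.60, 2.02 and 3.26 FPKM in CTL libraries (log2 change 1.37, limma adjusted p = 0.00088). Even the lowest DKO library was above every CTL library in both populations. Socs1, which blocks the kinase domain of JAKs, had a log2 change of 3.30 in CD93-negative cells (limma adjusted p = 1.17e-08) and of 0.22 in CD93-positive cells, where it missed the threshold with the authors' scaling (limma adjusted p = 0.857). After rescaling it was called higher there too, at 0.46 (limma adjusted p = 0.0239). Usp18, which holds the type I interferon receptor in check, and Socs2 rose in CD93-negative cells with log2 changes of 1.47 and 0.97 (limma adjusted p = 0.000123 and 0.000731). Socs2 was under 1 FPKM in every CTL library there and was tested only because the DKO libraries were higher. In CD93-positive cells 1 of 19 tested inhibitors rose, Socs3, and after rescaling 2 rose, Socs3 and Socs1, and 3 fell. Without CTL replicate 1 or CTL replicate 2 none of the inhibitors was called there with the authors' scaling. Of 8 partners and coactivators of STATs, 1 rose in CD93-negative cells: Irf9, which binds DNA with Stat2, had 54.7, 53.5 and 53.9 FPKM in DKO libraries, against 33.8, 39.5 and 38.6 FPKM in CTL libraries (log2 change 0.53, limma adjusted p = 0.00896). That count is below the 18.7% of all tested genes called higher. After rescaling Irf9 still rose and 3 partners fell, while with the authors' scaling none of the 8 was called without DKO replicate 3, and 1 rose and 3 fell without CTL replicate 1. In CD93-positive cells 0 of the 8 passed the limma test, with 1 at an unadjusted p under 0.05, and 2 fell after rescaling.

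Targets of the interferon-activated Stat2 complexes were the list with the most called members in CD93-negative cells: 14 of 15 tested genes rose and 0 fell in both scalings, with a median log2 change of 0.99 against 0.11 over all tested genes. The list was chosen with earlier results of these data known. Of the 14, Ifih1 was tested only because the DKO libraries were higher. Rsad2 and Ifit1 were under 1 FPKM in some CTL libraries and passed the filter with DKO libraries. Mx1, an antiviral GTPase, had 15.0, 14.2 and 13.5 FPKM in DKO libraries, against 3.10, 4.09 and 5.24 FPKM in CTL libraries (log2 change 1.59, limma adjusted p = 2.41e-05). Ifit3, Ifit2 and Isg15, further antiviral genes, had log2 changes of 1.42, 1.40 and 1.34 (limma adjusted p = 4.15e-05, 1.86e-05 and 0.000311). The 1 gene that was not called was Ddx58, the RNA sensor RIG-I, with 24.8 to 26.6 FPKM in DKO and 20.3 to 25.9 FPKM in CTL libraries. With no filter 9 of 16 rose, and with a filter of 5 FPKM 8 of 9. In CD93-positive cells 2 of 15 rose and 1 fell, with a median of 0.16 against −0.22 over all tested genes. After rescaling 2 rose and 0 fell there, with a median of 0.35 against −0.011. Then 7 of the 15 were at an unadjusted p under 0.05 (limma), beside 36.6% of all tested genes. Without CTL replicate 1 or CTL replicate 2 none was called there with the authors' scaling, and without DKO replicate 3 there was 1, which rose. Rsad2, the antiviral enzyme viperin, was at 25.9, 25.4 and 6.01 FPKM in DKO libraries, against 102, 102 and 25.5 FPKM in CTL libraries (log2 change −1.94, limma adjusted p = 4.93e-05, and 0.0931 after rescaling). The female CTL replicate 3 lay in the DKO range. The red cell marker Slc4a1 had a like pattern, with 171.5, 173 and 42.1 FPKM in DKO libraries, against 653, 624 and 130 FPKM in CTL libraries. The part of red cells or of sex in the change of Rsad2 was not tested. Oasl2 had 4.63, 3.05 and 1.996 FPKM in DKO libraries, against 0.0852, 0.312 and 3.64 FPKM in CTL libraries, so that CTL replicate 3 again lay with the DKO libraries (log2 change 1.12, limma adjusted p = 0.00103, and 0.112 after rescaling). Oas1a, which like Oasl2 belongs to the oligoadenylate synthetase family, had 6.01, 8.04 and 3.72 FPKM in DKO libraries, against 2.06, 1.11 and 3.88 FPKM in CTL libraries, and was called in both scalings (log2 change 1.08, limma adjusted p = 0.0123, and 0.0214 after rescaling).

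Among targets of Stat3, 5 of 9 tested genes rose and 0 fell in CD93-negative cells, and 3 of 10 rose and 0 fell in CD93-positive cells, and after rescaling 5 rose and 2 fell in CD93-negative and 5 rose and 1 fell in CD93-positive cells. In CD93-positive cells 2 rose without CTL replicate 1 or CTL replicate 2 and 5 without DKO replicate 3. Prdm1, the regulator of the plasma cell state, had 3.37, 3.08 and 3.11 FPKM in DKO libraries, against 0.482, 0.542 and 0.874 FPKM in CTL CD93-negative libraries (log2 change 1.37, limma adjusted p = 6.34e-05). In CD93-positive cells it had 5.65, 3.98 and 2.54 FPKM in DKO libraries, against 0.779, 0.741 and 0.796 FPKM in CTL libraries (log2 change 1.47, limma adjusted p = 3.95e-06). The groups were separate in both populations. Prdm1 was, however, under 1 FPKM in every CTL library of both and was tested only because the DKO libraries were higher. Pim1, a kinase gene shared with the Stat5 list, and Bcl3, a partner of NF-kappaB, rose in CD93-negative cells with log2 changes of 1.02 and 0.97 (limma adjusted p = 0.000179 and 0.000933). Among targets of Stat5, 4 of 7 rose and 0 fell in CD93-negative cells, Pim1, Socs2, the survival gene Bcl2l1 and the cyclin gene Ccnd2, and after rescaling 3 rose and 1 fell. In CD93-positive cells 0 of 8 Stat5 targets passed the limma test, with 1 at an unadjusted p under 0.05, and after rescaling 1 rose and 2 fell. Of the targets of Stat4, 1 of 5 rose in CD93-negative cells, Tbx21, which encodes T-bet and had 11.5, 11.7 and 12.5 FPKM in DKO libraries, against 2.19, 3.35 and 3.90 FPKM in CTL libraries (log2 change 1.66, limma adjusted p = 2.08e-05). In CD93-positive cells 2 of 5 rose, Tbx21 and Ifng, the gene of interferon gamma, with log2 changes of 0.84 and 0.90 (limma adjusted p = 0.0397 and 0.0118). For both genes DKO replicate 3 was below CTL replicate 3, so the groups overlapped: it had 1.56 FPKM of Tbx21 and 0.915 FPKM of Ifng, against 1.62 and 1.009 FPKM in CTL replicate 3. None of the Stat4 targets was called there without DKO replicate 2, CTL replicate 1 or CTL replicate 2 or with the sex term, and 1 without DKO replicate 1. After rescaling 2 rose and 1 fell: Hlx, a homeobox gene named here after its values were seen, had 8.21, 8.81 and 4.28 FPKM in DKO libraries, against 15.7, 13.6 and 12.7 FPKM in CTL libraries (rescaled log2 change −0.72, limma adjusted p = 0.0101).

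Targets of Stat6 went in both directions. Fcer2a, which encodes CD23 and is turned on by IL-4 in B cells, had 166, 168 and 167 FPKM in DKO libraries, against 300, 367 and 357 FPKM in CTL CD93-negative libraries (log2 change −1.02, limma adjusted p = 0.000176). In CD93-positive cells it had 17.0, 17.0 and 8.53 FPKM in DKO libraries, against 40.8, 34.9 and 37.5 FPKM in CTL libraries (log2 change −1.41, limma adjusted p = 0.00808). It was the 1 gene of 3 tested that fell in CD93-negative cells, where Socs1 rose, and the 1 of 4 in CD93-positive cells, where none rose. In CD93-positive cells no Stat6 target was called with the authors' scaling when any 1 CTL replicate was left out, or with the replicate block or the sex term. CD23 and CD21, the product of Cr2, are also markers by which other B cell subsets of the series were sorted. Cr2, which is not on the Stat6 list, had 42.2, 43.4 and 43.4 FPKM in DKO libraries, against 90.4, 112 and 110 FPKM in CTL CD93-negative libraries (log2 change −1.25, limma adjusted p = 2.97e-05). It had 2.31, 2.54 and 0.851 FPKM in DKO libraries, against 5.88, 6.01 and 7.09 FPKM in CTL CD93-positive libraries (log2 change −1.39, limma adjusted p = 0.000236). The part of such subsets in the change of Fcer2a was not tested. After rescaling 1 rose and 2 fell in each population. Of the cytokine genes themselves most were silent or nearly so: 4 of 15 passed the filter in CD93-negative cells, and Ifnb1, Il2 and Il6 were listed at 0 in all 6 libraries. Ebi3, a chain of IL-27 and IL-35, had 13.0, 15.7 and 15.7 FPKM in DKO libraries, against 11.1, 8.90 and 9.27 FPKM in CTL libraries (log2 change 0.56, limma adjusted p = 0.0123, and 0.128 after rescaling). It was the 1 cytokine gene called there, and none was without DKO replicate 2 or DKO replicate 3, while 2 rose without CTL replicate 2 or CTL replicate 3. In CD93-positive cells 2 of 6 rose: Il10 had 1.89, 1.41 and 1.30 FPKM in DKO libraries, against 0.544, 0.0831 and 0.0540 FPKM in CTL libraries (log2 change 1.06, limma adjusted p = 0.00021), and Ifng was the other. Without DKO replicate 2, CTL replicate 1 or CTL replicate 2 there was 1 such call. Socs2, Prdm1 and Ifih1 in CD93-negative and Prdm1 and Il10 in CD93-positive cells were under 1 FPKM in every CTL library and were tested only because the DKO libraries were higher. The called genes Rsad2, Ifit1 and Bcl2l1 in CD93-negative cells reached 1 FPKM in only 1 or 2 CTL libraries. The same held for Ifng, Oasl2 and Tbx21 in CD93-positive cells. All 6 of these therefore reached the 3 libraries of the filter with DKO libraries.

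**Figure D4:**
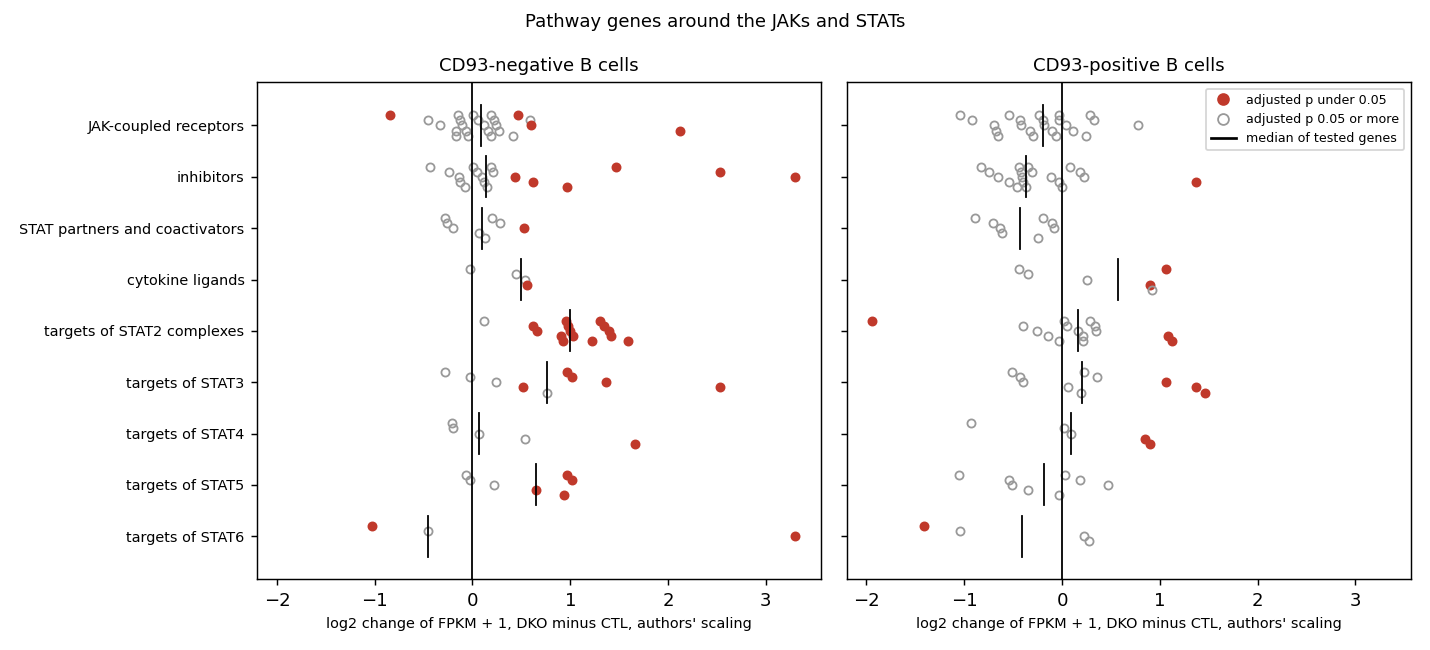
Log2 change of FPKM + 1, DKO minus CTL, with the authors' scaling, for each tested gene of the 9 lists around the JAKs and STATs, filled red where the adjusted p is under 0.05, with a bar at the median of the list. In CD93-negative cells 14 of the 15 targets of Stat2 complexes are red and above 0, while in CD93-positive cells 2 are red above 0 and 1, Rsad2 at −1.94, is red below 0.

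The genes whose pattern over the 6 CD93-negative libraries was most like that of a called member were found by the smallest root mean square difference of mean-centred log2 values among tested genes. Nearest to Stat2 were Parp14 (0.0178), Eif3h (0.0290) and H2-D1 (0.0310). Parp14, an ADP-ribosyltransferase, had 28.8, 28.9 and 28.5 FPKM in DKO libraries, against 15.0, 19.6 and 17.5 FPKM in CTL libraries. H2-D1, a class I histocompatibility gene, had 1056, 1087 and 1102 FPKM in DKO libraries, against 571, 742 and 690 FPKM in CTL libraries. Nearest to Stat3 were Eif2a (0.0223), Tnfrsf14 (0.0342) and Uqcrfs1 (0.0348). Each of these shared with its member the step between the groups, which the choice by likeness fixed in advance. The low CTL replicate 1, also shared, was a trait of the whole library. Its upper quartile over tested genes was 18.7 FPKM, against 24.3 and 23.0 FPKM in CTL replicates 2 and 3.

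Markers of other cells moved beside these results. In CD93-negative cells 6 of 12 T cell markers were called higher, with a summed level of 65.3 to 71.8 FPKM in DKO and 35.1 to 58.1 FPKM in CTL libraries. Plasma cell markers were called higher for 3 of 5, at 321 to 360 FPKM in DKO and 68.4 to 96.0 FPKM in CTL libraries, red cell markers for 4 of 6, at 170 to 198 FPKM in DKO and 41.9 to 60.0 FPKM in CTL libraries, dendritic cell markers for 2 of 6, at 120 to 134 FPKM in DKO and 77.9 to 105 FPKM in CTL libraries, and macrophage markers for 2 of 4, at 25.0 to 27.5 FPKM in DKO and 21.5 to 27.7 FPKM in CTL libraries. Most of the plasma cell sum in DKO libraries was Igj, with 192, 212 and 221 FPKM, against 4.49, 9.78 and 9.09 FPKM in CTL libraries. Of that list Sdc1 and Irf4 were not called, with log2 changes of 0.23 and 0.071. Most of the dendritic cell sum was Bst2, with 92.4, 100.5 and 105.5 FPKM in DKO libraries, against 53.5, 67.3 and 67.7 FPKM in CTL libraries. Of the other dendritic cell markers, Zbtb46 was called higher and Flt3 had a higher mean in DKO cells. Siglech, Clec9a and Xcr1 had lower means there. So did the macrophage markers that were not called, Cd68 and Lyz2, with log2 changes of −0.14 and −0.35. The natural killer list had 1 of 10 called higher, at 81.4 to 93.3 FPKM in DKO and 48.5 to 98.7 FPKM in CTL libraries. Genes that define B cells summed to 8460 to 9241 FPKM in DKO and 7077 to 9068 FPKM in CTL libraries, with 1 of 10 called lower, and no list had a marker at 0 in all 6 libraries. These counts stand beside 18.7% of all tested genes called higher, and the natural killer count is below that share. After rescaling, when 17.1% of all tested genes were called higher, the calls higher were 5 of 12 for T cells, 3 of 5 for plasma cells, 2 of 6 for red cells, 2 of 6 for dendritic cells, where 2 more were lower, 2 of 4 for macrophages and 1 of 10 for natural killer cells, and 6 of 10 B cell genes were lower. Of the markers called higher, Cd28 for T cells, Zbtb46 for dendritic cells, Slc4a1 and Alas2 for red cells and Prdm1 for plasma cells were under 1 FPKM in every CTL library and were tested only because the DKO libraries were higher. Gzmb, C1qb, Cd3g, Hba-a1 and Hbb-b2 reached 1 FPKM in only 1 or 2 CTL libraries, so they passed the filter with DKO libraries. In CD93-positive cells plasma cell markers were higher for 3 of 5, at 844 to 1451 FPKM in DKO and 147 to 200 FPKM in CTL libraries, natural killer markers for 2 of 9, at 28.9 to 85.5 FPKM in DKO and 21.5 to 41.0 FPKM in CTL libraries, and T cell markers for 1 of 12, at 67.7 to 210 FPKM in DKO and 102 to 128 FPKM in CTL libraries, beside 1.67% of all tested genes. Igj again made up most of the plasma cell sum in DKO libraries, with 1148, 933 and 688 FPKM, against 36.6, 27.0 and 40.6 FPKM in CTL libraries. Sdc1 and Irf4 had log2 changes of −0.15 and −0.51 there and were not called with the authors' scaling. Gzmb of the natural killer list and Prdm1 were tested there only because the DKO libraries were higher. Cd28, the T cell marker called, reached 1 FPKM in only 2 CTL libraries there. After rescaling, in which Stat4 was called higher and 11.4% of all tested genes were, natural killer markers were higher for 4 of 9, T cell markers for 2 of 12, with 9 at an unadjusted p under 0.05, dendritic cell markers for 1 of 5 and plasma cell markers for 3 of 5, where 1 was lower. Neutrophil markers were then lower for 3 of 5 and B cell genes for 6 of 10, against 0 and 1 with the authors' scaling, when 9.34% of all tested genes were lower. There 6 of 7 red cell markers were lower, and 0 after rescaling, at 3296 to 15660 FPKM in DKO and 15070 to 64340 FPKM in CTL libraries, neutrophil markers summed to 381 to 1214 FPKM in DKO and 1369 to 1918 FPKM in CTL libraries, and B cell genes to 2355 to 5071 FPKM in DKO and 4884 to 6171 FPKM in CTL libraries. The part of these cells in the results above was not tested, and fewer cells of a type cannot be told apart from less RNA per cell in such bulk samples.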

How the data were processed

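RNA-seq libraries had been made from splenic B cell RNA with a strand-specific SureSelect kit, per the labels' protocols. The submitters' processing notes name TopHat2 2.0.8, Cufflinks 2.1.1, Bowtie2 2.1.0 and the build mm9, with no order or role. The authors deposited FPKM values, scaled per transcript length and library. The annotation, filters and treatment of multiply mapping reads are not given in the sources used here. The depth is unknown, and no counting intervals are given. In 1 of the tables, 6 value columns repeated others cell for cell and were not used.

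On log2(FPKM + 1), DKO was tested two-sided against CTL within each table for genes that reached 1 FPKM in 3 or more of its 6 libraries, using limma 3.58.1 (lmFit and eBayes, trend allowed) under R 4.3.3, without covariates, with Benjamini-Hochberg adjustment over all tested genes and a threshold of 0.05. The fits were tested on simulated data. Fold changes on this scale understate those of low genes. The upper quartile rescaling and the other alternatives are pseudocounts of 0.1 and 5, no filter, a filter of 5 FPKM, quantile normalization, no trend, sample weights, the replicate block, a sex term (CD93-positive) and each library left out. Combinations of rescaling with a block, a sex term or a library left out, and list counts under all alternatives, were added after seeing the data. Motifs were searched in RefSeq promoter windows, and 50-base windows in GENCODE M21 transcripts.

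The members and lists were chosen with earlier results of these data known. From each list, the called genes with the largest changes, 4 at most, are named. Like genes are the 3 nearest to each called member. Some list genes overlap, as Socs1, Socs2, Socs3, Pim1, Ifng, Il10, Il4ra and Il2ra stand in more than 1 list.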

Additional observations from a re-analysis of the deposited data

How the results depend on the processing

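Stat2 and Stat3 in CD93-negative cells kept their direction and call under all 22 alternatives. There 2351 genes were called, against 1030 without a filter, 4478 after upper quartile rescaling, 4198 with quantile normalization, 3689 with rescaling and the replicate block, and 1430 to 4055 with a library left out. The count of members was 2, against 7, 7, 5 and 2 to 7 under the last 4 of these. In CD93-positive cells 361 genes were called, against 5 without a filter, 168 with a filter of 5 FPKM (which leaves Stat4 untested), 2331 after rescaling, 2230 with quantile normalization, 188 without a trend, 783 with sample weights, 237 with the block, 127 with the sex term, 898 and 570 with rescaling and the block or sex term, and 163 to 2101 with a library left out. The count of members was 0, against 2 after rescaling, 1 with quantile normalization and 0 to 2 with a library left out.

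Signs turned in 29 of 198 fits of members in CD93-negative and 48 of 215 in CD93-positive cells, and the cause was not tested. In CD93-negative cells rescaling, alone or with the block, gave −0.0092 for Stat5a, −0.20 for Stat5b and −0.19 for Tyk2, quantile normalization −0.18 for Stat5b and for Tyk2, and sample weights −0.078 and −0.088 for Stat5b and Tyk2. With a library left out the values ran from −0.21 to 0.12 for Tyk2, −0.025 to 0.33 for Stat4, −0.064 to 0.26 for Stat5a and −0.22 to 0.087 for Stat5b. In CD93-positive cells rescaling, alone or with the block, gave 0.034 for Stat2, 0.16 for Stat3, 0.080 for Stat5a and 0.20 for Tyk2, and quantile normalization 0.045, 0.15, 0.096 and 0.21. Sample weights gave 0.16, 0.30, 0.24 and 0.43 for these 4 and 0.074 for Stat5b, and rescaling with the sex term 0.10 for Stat3, 0.14 for Stat5a and 0.099 for Tyk2. With a library left out they ran from −0.25 to 0.33 for Tyk2, −0.39 to 0.12 for Stat2, −0.27 to 0.28 for Stat3 and −0.37 to 0.15 for Stat5a. Counts of called list genes moved by over 1.5 times in 57 of 198 fits in CD93-negative and 104 of 216 in CD93-positive cells.

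Whether replicate numbers pair the samples could not be settled. Same-numbered deviations correlated at 0.0237, −0.113 and −0.0858 in CD93-negative and 0.166, −0.113 and −0.139 in CD93-positive cells. Differently numbered ones correlated at −0.0425 to 0.121 and at −0.313 to 0.336. With so few libraries in a group such values cannot exclude pairing. With the replicate block 2874 genes and 3 members were called in CD93-negative cells, Jak2 being added at −0.41 (limma adjusted p = 0.0382), and with rescaling and the block no member was called in CD93-positive cells.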
